A study of Homo sapiens with 9 samples.

Results

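AXIN2, NKD1, NKD2, SP5, RNF43, ZNRF3, APCDD1, NOTUM, DKK1 and DKK4 are genes that Wnt signalling switches on and that in turn dampen the pathway, and these 10 feedback genes are described here. They were chosen by name, as the probe sets of the array whose only gene symbol is a member of that list. Each of the 10 genes had 1 such probe set, so 10 of 33297 probe sets, or 10 of 18417 genes represented by a single-symbol probe set, are described. The cells were H9, an established human embryonic stem cell line, in a derivative (H9-TCF7L1) that carries a TCF7L1 transgene, and every group carried it. The first group was kept for 48 h in differentiation medium for the primitive streak (here PS medium) with doxycycline (Dox, 1 ug/ml, 48 h), the second for 48 h in PS medium alone, and the third was left untreated in mTeSR1, a maintenance medium for pluripotent cells. Each group had 3 arrays. The labels used here do not give the promoter of the transgene, whether the line is 1 clone, or what PS medium contains. No group received Dox without the transgene or in mTeSR1, so an action of Dox itself and an action of TCF7L1 cannot be told apart.

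In the Wnt pathway a secreted ligand binds Frizzled and LRP receptors, a cytoplasmic destruction complex stops degrading beta-catenin, and beta-catenin joins TCF/LEF factors on DNA to switch targets on. Many of those targets are inhibitors of the same pathway, which limits the signal in time and space. TCF7L1 is the TCF/LEF factor best known as a repressor in pluripotent cells, where it is lifted from its targets when Wnt signalling is active. Wnt signalling is also one of the signals that induce the primitive streak, the embryonic structure that gives rise to mesoderm and endoderm. The question asked of the 10 genes was which of these known Wnt targets stayed lower when TCF7L1 was raised during differentiation.

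TCF7L1 checked the labels. Its deposited intensity was 13100.2, 12433 and 2699 with Dox, against 1275, 1542 and 1611 in PS medium, and it was 3718, 3878 and 3572 in untreated cells. Every Dox array lay above every PS array, but Dox replicate 3 lay below the untreated arrays. Over the same replicate numbers the intensity ratio of Dox to PS was 10.3, 8.06 and 1.67. All results below were therefore also read without Dox replicate 3. Whether the probe set reads the transgene in full is not stated in the labels.

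With Dox, 4 of the 10 feedback genes were lower than in PS medium alone (SP5, APCDD1, DKK1 and DKK4) and 1, RNF43, was higher. The other 5, AXIN2, NKD1, NKD2, ZNRF3 and NOTUM, did not pass the test. Without Dox replicate 3 the DKK1 call was lost, which left 3 lower and 1 higher. Calls are limma p-values adjusted by Benjamini-Hochberg over all 18417 genes at a threshold of 0.05. Among all genes 8.44% were called lower and 8.91% higher in this comparison, and the members' median log2 difference was -0.14, against 0.0020 for all genes. All differences are on the scale of log2(value + 16) after quantile normalization, which understates the change of dim genes. In this bulk RNA, fewer cells that express a gene and less RNA per cell cannot be told apart.

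**Figure D1:**
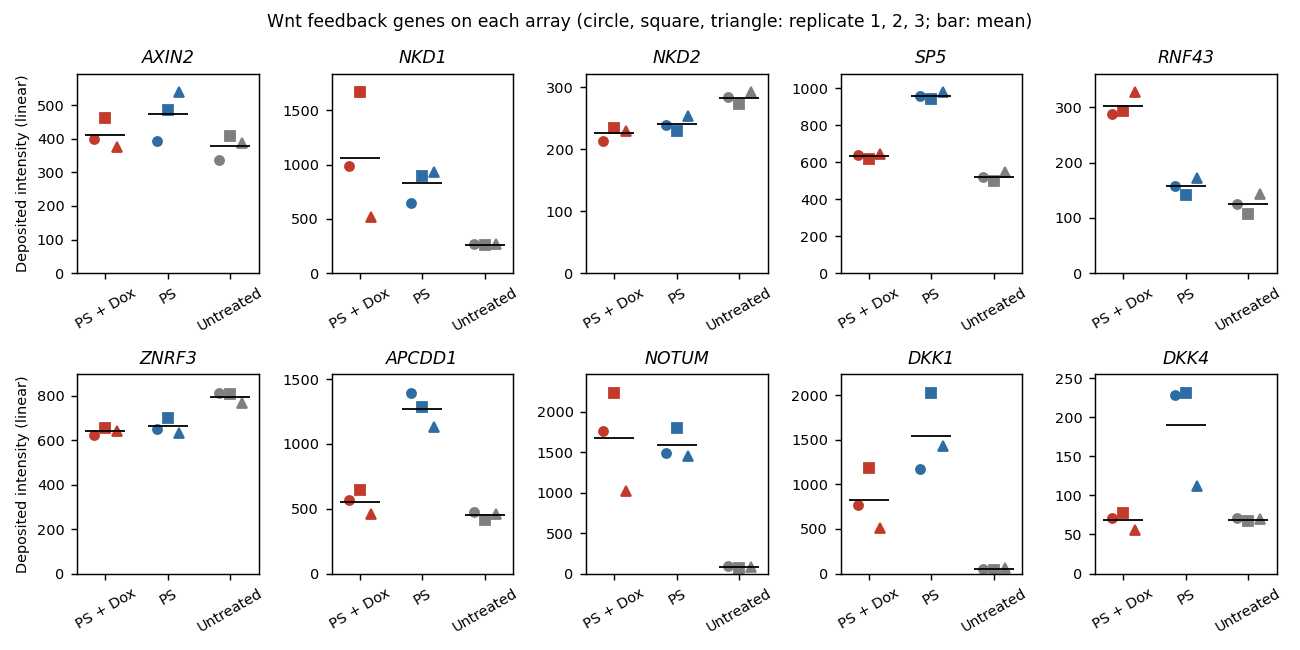
Deposited intensity (linear scale from 0) of the 10 feedback genes on each of the 9 arrays, with the mean of each group as a bar. SP5, APCDD1 and DKK4 lie lower on every PS + Dox array than on every PS array, RNF43 lies higher, and for the other 6 genes the PS + Dox and PS arrays overlap.

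The promoter windows of SP5, DKK1 and APCDD1 are shown because these are the genes called lower with Dox for which a RefSeq promoter (GRCh38.p14) was at hand. The letters CTTTG followed by 2 letters that are each A or T, which are forms of the TCF/LEF recognition sequence, were searched on both strands in windows of 250 bases before to 50 bases after the start. Matches are in capitals in the 250 bases before the start, given on the strand of the gene.
SP5, chr2:170715087-170715336, + strand: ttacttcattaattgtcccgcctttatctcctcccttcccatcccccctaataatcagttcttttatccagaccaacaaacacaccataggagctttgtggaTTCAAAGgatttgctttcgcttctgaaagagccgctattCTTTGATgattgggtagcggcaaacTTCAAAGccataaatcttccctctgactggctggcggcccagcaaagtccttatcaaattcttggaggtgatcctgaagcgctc
DKK1, chr10:52314031-52314280, + strand: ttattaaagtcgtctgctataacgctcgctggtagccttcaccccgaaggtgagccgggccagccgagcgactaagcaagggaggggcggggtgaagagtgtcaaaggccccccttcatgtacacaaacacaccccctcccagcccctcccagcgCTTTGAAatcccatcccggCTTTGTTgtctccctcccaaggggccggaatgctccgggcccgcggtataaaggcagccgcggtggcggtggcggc
APCDD1, chr18:10454385-10454634, + strand: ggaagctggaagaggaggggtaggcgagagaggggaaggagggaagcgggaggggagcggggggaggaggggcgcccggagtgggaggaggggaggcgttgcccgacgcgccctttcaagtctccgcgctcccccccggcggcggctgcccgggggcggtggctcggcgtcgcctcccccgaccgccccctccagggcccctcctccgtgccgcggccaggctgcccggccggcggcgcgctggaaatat

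The SP5 window held 3 matches, which do not overlap, with first bases at -148, -109 and -84 from the start. The DKK1 window held 2, at -95 and -76. Of all 35116 windows, 13.8% held at least 1 match, 1.58% at least 2 and 0.179% at least 3. A match shows only that the letters are present, and binding of TCF7L1 or another factor was not measured. No match lay in the windows of APCDD1, of NKD2 or of either listed start of RNF43, which says only that these letters are not in those 300 bases. In all, 5 of the 10 genes had a window, with AXIN2, NKD1, ZNRF3, NOTUM and DKK4 unmatched in the table.

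SP5 is a zinc finger transcription factor that Wnt signalling induces and that represses other Wnt targets. Its intensity was 641, 619 and 643 in PS medium with Dox, against 958, 943 and 979 in PS medium alone, and 519, 497 and 549 in untreated cells. The 3 groups did not overlap at any point, and the Dox arrays lay between the others. SP5 fell by 0.59 ± 0.07 on the log2 scale with Dox (SE, n = 3 per group, adjusted p = 0.000175). It rose 1.77-fold in PS medium over untreated cells (0.83 ± 0.07, adjusted p = 7.15e-06). The Dox arrays of each replicate number stood at 0.669, 0.657 and 0.656 of their PS counterparts, so the fall was of the same size on replicate 3, where TCF7L1 was raised least. SP5 also stayed above untreated cells with Dox, by 0.24 ± 0.07 (adjusted p = 0.0211). That small difference missed the threshold without Dox replicate 1 (0.23, adjusted p = 0.0621) or 3 (0.23, 0.0583), and without untreated replicate 1 (0.24, 0.0705) or 2 (0.20, 0.0886).

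The inhibitors that sit in the cell membrane moved in different directions. APCDD1, a membrane glycoprotein that binds Wnt ligands and their LRP co-receptor and inhibits signalling, had 564, 644 and 459 with Dox, against 1397, 1286 and 1127 in PS medium, and 478, 415 and 461 in untreated cells. Every Dox array lay below every PS array and 2 of the 3 lay above every untreated array. APCDD1 fell by 1.18 ± 0.12 with Dox (2.26-fold, adjusted p = 7.92e-05). It rose by 1.43 ± 0.12 in PS medium over untreated cells (2.70-fold, adjusted p = 8.41e-06). Its level with Dox differed from untreated cells by 0.26 ± 0.12, which missed the threshold (adjusted p = 0.139, 95% interval -0.01 to 0.53), but it passed without Dox replicate 3 (0.37, adjusted p = 0.0337).

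RNF43 and ZNRF3 are related E3 ubiquitin ligases that remove Frizzled receptors from the cell surface. RNF43 had 288, 293 and 328 with Dox, against 158, 142 and 173 in PS medium, and 124, 107 and 143 in untreated cells. All Dox arrays exceeded all others. RNF43 rose by 0.88 ± 0.10 with Dox (1.84-fold, adjusted p = 0.000186) and was 2.33-fold above untreated cells (1.22 ± 0.10, adjusted p = 8.76e-06). The same-number Dox to PS ratios were 1.82, 2.07 and 1.89, with replicate 3 between the other 2. Between PS medium and untreated cells, whose arrays overlapped, RNF43 rose by 0.34 ± 0.10 (adjusted p = 0.0286). That call was lost on values as deposited (0.31, adjusted p = 0.0645), without PS replicate 1 (0.36, 0.0580) or 3 (0.27, 0.0917), and without untreated replicate 1 (0.33, 0.0830) or 2 (0.27, 0.115).

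ZNRF3 had 626, 658 and 641 with Dox, against 650.3, 703 and 635 in PS medium, and 816, 809 and 767 in untreated cells. The Dox and PS arrays overlapped, and both groups lay below the untreated arrays. The Dox difference was -0.06 ± 0.07 (adjusted p = 0.660, 95% interval -0.21 to 0.10). ZNRF3 fell by 0.29 ± 0.07 in PS medium against untreated cells (1.22-fold, adjusted p = 0.00883), a call lost with median centring (-0.23, adjusted p = 0.0737). With Dox it fell by 0.35 ± 0.07 against untreated cells (adjusted p = 0.00314). A test of whether RNF43 and ZNRF3 differed in their response was not made.

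DKK1 and NOTUM, both secreted inhibitors, had the largest differences between PS medium and untreated cells of the 10 genes. DKK1 and DKK4 are Dickkopf proteins that bind the LRP5 and LRP6 co-receptors and block them. DKK1 had 774, 1187 and 509.5 with Dox, against 1171, 2030.3 and 1428 in PS medium, and 46.8, 44.4 and 65.5 in untreated cells. The Dox and PS arrays overlapped narrowly, at Dox replicate 2 and PS replicate 1, while both groups lay far above untreated cells. DKK1 rose 22.7-fold in PS medium over untreated cells (4.50 ± 0.27, adjusted p = 6.36e-07), and with a log offset of 64 in place of 16 that difference was 3.76. With Dox it fell by 0.94 ± 0.27 against PS medium (1.92-fold, adjusted p = 0.0330) and was still 11.8-fold above untreated cells (3.56 ± 0.27, adjusted p = 3.72e-06, and 2.86 with an offset of 64).

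The DKK1 fall with Dox was the least stable of the 5 calls. It was lost without PS replicate 2 (-0.73, adjusted p = 0.107) or 3 (-0.99, 0.0541), without Dox replicate 1 (-0.94, 0.0905) or 3 (-0.65, 0.0877), without untreated replicate 1 (-0.94, 0.0516), and when PS and Dox arrays were fitted without the untreated ones (-0.94, 0.0710). Within replicate numbers the Dox to PS ratio was 0.661, 0.585 and 0.357, lower in each of the 3 pairs.

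DKK4 was dim, among the 25% of genes with the lowest mean level. Its intensity was 70.4, 77.2 and 55.9 with Dox, against 229, 231 and 112 in PS medium, and 70.4, 66.9 and 69.7 in untreated cells. All PS arrays lay above all others, and the Dox arrays lay around the untreated level. DKK4 fell by 1.25 ± 0.22 with Dox (2.38-fold, adjusted p = 0.00261), and it rose by 1.26 ± 0.22 in PS medium over untreated cells (2.40-fold, adjusted p = 0.00140). With Dox it differed from untreated cells by 0.02 ± 0.22 (adjusted p = 0.969, 95% interval -0.47 to 0.51). PS replicate 3 lay between the other PS arrays and the untreated arrays, and without it the Dox difference was -1.56, against -1.25 with all arrays.

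NOTUM is an enzyme that removes the lipid from Wnt ligands and so inactivates them. It had 1756, 2235 and 1016 with Dox, against 1489, 1803 and 1454 in PS medium, and 87.3, 73.9 and 82.8 in untreated cells. The Dox arrays spread on both sides of the PS arrays, and all 6 lay far above the untreated ones. NOTUM rose 16.5-fold in PS medium over untreated cells (4.04 ± 0.22, adjusted p = 3.94e-07) and stood 16.8-fold over them with Dox (4.07 ± 0.22, adjusted p = 4.05e-07). The Dox difference from PS medium was 0.03 ± 0.22 (adjusted p = 0.959, 95% interval -0.46 to 0.52), and without Dox replicate 3 it was 0.35 (adjusted p = 0.0886).

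Inside the cell, AXIN2 is a scaffold of the destruction complex and is widely used as a readout of Wnt signalling, and NKD1 and NKD2 are proteins that bind Dishevelled, which relays the receptor signal. AXIN2 had 398, 460.5 and 376 with Dox, against 392.5, 487 and 539 in PS medium, and 338, 409 and 388 in untreated cells. The 3 groups overlapped. The AXIN2 difference was -0.18 ± 0.12 between Dox and PS medium (adjusted p = 0.379, 95% interval -0.45 to 0.09) and 0.30 ± 0.12 between PS medium and untreated cells (adjusted p = 0.0959). The second difference passed without PS replicate 1 (0.41, adjusted p = 0.0270). Between Dox and untreated cells AXIN2 differed by 0.11 ± 0.12 (adjusted p = 0.549).

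NKD1 had 988, 1667 and 515 with Dox, against 650.1, 898 and 934 in PS medium, and 265, 258 and 266 in untreated cells. The Dox arrays spanned a wider range than any other group of this gene, with 2 above and 1 below all PS arrays, and no array of either group came near the untreated level. NKD1 rose 2.99-fold in PS medium over untreated cells (1.58 ± 0.31, adjusted p = 0.00303) and 3.48-fold with Dox over untreated cells (1.80 ± 0.31, adjusted p = 0.00142). The Dox difference from PS medium was 0.21 ± 0.31 (adjusted p = 0.726, 95% interval -0.48 to 0.91), or 0.64 without Dox replicate 3, which also missed the threshold (adjusted p = 0.0515).

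NKD2 had 213, 235 and 229 with Dox, against 239.7, 229.9 and 254 in PS medium, and 285, 273 and 293 in untreated cells. Both differentiated groups lay below all untreated arrays and overlapped each other. NKD2 fell by 0.29 ± 0.08 with Dox against untreated cells (1.23-fold, adjusted p = 0.0172). That call was lost without Dox replicate 1 (-0.24, adjusted p = 0.0679) and without untreated replicate 1 (-0.30, 0.0525) or 3 (-0.28, 0.0560). The difference was -0.20 ± 0.08 between PS medium and untreated cells (adjusted p = 0.0901), and it passed with array weights (-0.21, adjusted p = 0.0446). It was -0.10 ± 0.08 between Dox and PS medium (adjusted p = 0.498).

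**Figure D2:**
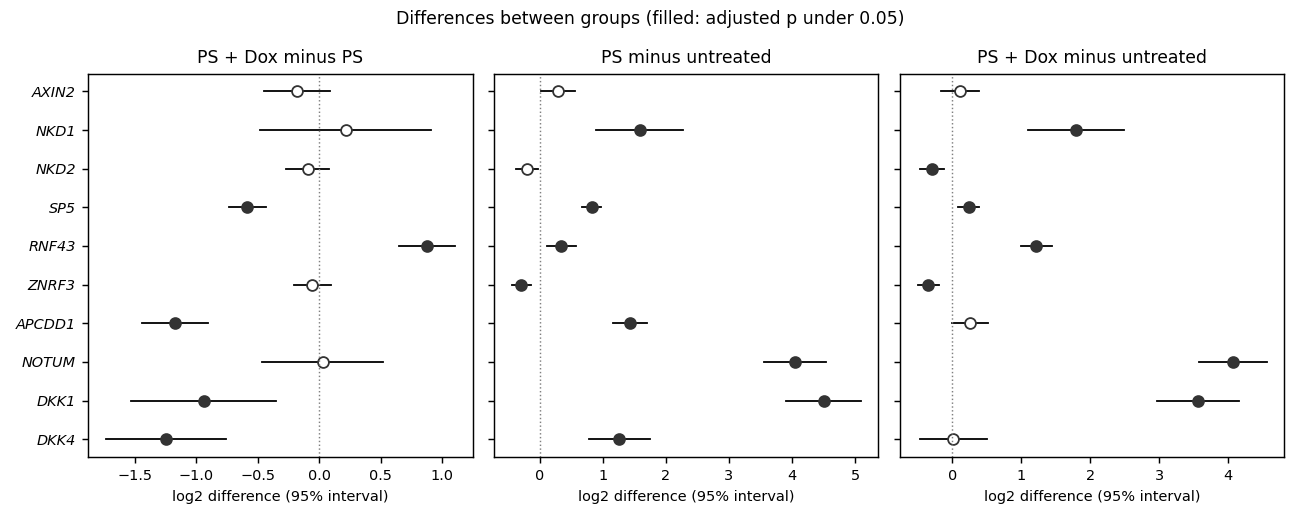
Log2 differences between groups with 95% intervals for the 10 feedback genes, filled where the adjusted p is under 0.05. In the left panel 4 genes are lower with Dox and RNF43 is higher, and in the middle panel DKK1 (4.50) and NOTUM (4.04) show the largest differences between PS medium and untreated cells.

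Set beside untreated cells, 7 of the 10 genes rose in PS medium and 1, ZNRF3, fell, where 14.2% of all genes were called higher and 15.7% lower. Their median log2 difference was 1.045, against -0.01 for all genes. With Dox, 5 were higher than in untreated cells (NKD1, SP5, RNF43, NOTUM and DKK1) and 2 were lower (NKD2 and ZNRF3), where 15.3% and 14.9% of all genes were called. Arrays of the compared groups did not overlap for 4 of the 10 genes between Dox and PS medium, for 8 between PS medium and untreated cells, and for 7 between Dox and untreated cells, beside 29.9%, 42.5% and 44.6% of all genes. The 3 comparisons share arrays, so their counts are not separate evidence. The 7 genes that rose in PS medium thus included 4 that were lower with Dox than without it, 2 for which no difference was detected (NKD1 and NOTUM) and 1 that was higher (RNF43).

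The 3 Dox arrays differed in TCF7L1, and the feedback genes differed in how they were ordered over them. Relative to the PS mean, TCF7L1 was higher by 3.18, 3.09 and 0.90 on the log2 scale on replicates 1, 2 and 3. APCDD1 stood at -1.15, -0.97 and -1.41 on the same arrays, DKK4 at -1.23, -1.02 and -1.50, and SP5 at -0.57, -0.63 and -0.56. Replicate 3, with the least TCF7L1 RNA, was thus lowest for APCDD1 and DKK4. RNF43 stood at 0.79, 0.86 and 0.98, the reverse of the order of TCF7L1. DKK1 (-0.95, -0.36 and -1.52), NKD1 (0.28, 1.01 and -0.64) and NOTUM (0.18, 0.51 and -0.61) were also lowest on replicate 3 and highest on replicate 2. Set against the PS array of the same number instead of the PS mean, TCF7L1 was higher by 3.37, 3.03 and 0.77, and DKK4 stood at -1.50, -1.37 and -0.87, so its smallest difference was then on replicate 3. Over all 9 arrays NKD1, NOTUM and DKK1 ran close together (Pearson r from 0.905 to 0.976 between pairs), and so did SP5, APCDD1 and DKK4 (0.849 to 0.960). RNF43 had r = -0.089 with APCDD1 and 0.054 with SP5. These correlations describe 9 arrays in 3 groups and share the differences between groups.

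**Figure D3:**
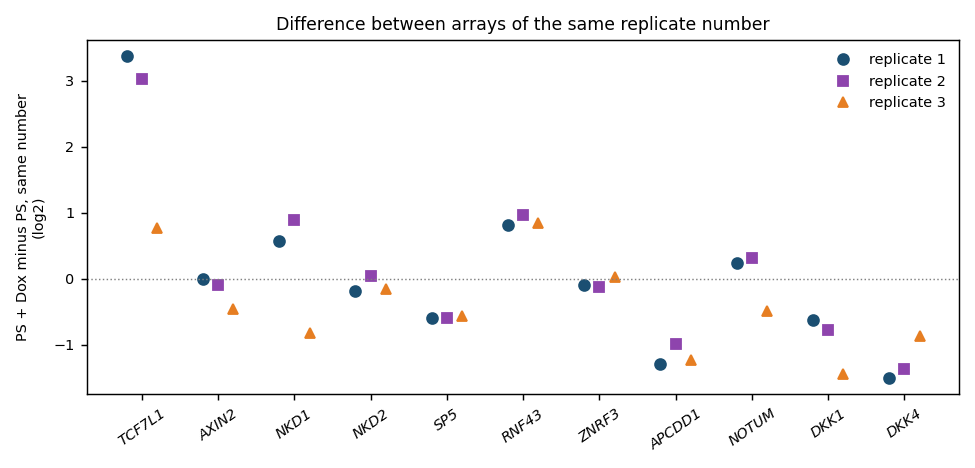
Log2 difference between the PS + Dox and the PS array of the same replicate number, for TCF7L1 and the 10 feedback genes. SP5, APCDD1, DKK1 and DKK4 lie below 0 and RNF43 above 0 for all 3 numbers, whereas NKD1 and NOTUM lie above 0 for numbers 1 and 2 and below 0 for number 3, where TCF7L1 is raised by 0.77.

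Genes with the most similar profile over the 9 arrays were looked up among those whose log2 values span at least 1. For DKK1 they were the streak factors EOMES (r = 0.990) and MIXL1 (0.989), and the adaptor SHB (0.988). For APCDD1 they were MAP4K1 (0.988), GAPT (0.983) and SNAI1, a repressor of epithelial genes (0.979). For DKK4 they were PNP (0.972), RASGRP3 (0.971) and APCDD1 itself (0.941). For SP5 they were UNC50 (0.994), MAN1A1 (0.992) and ARRB1 (0.988), for NKD1 HCFC2 (0.993), E2F8 (0.968) and UNC5C (0.964), and for NOTUM KMT5A (0.996), PXMP2 (0.992) and TMEM52B (0.991). RNF43 was most like CD55 (0.990), DGCR6 (0.986) and SATB1 (0.985), and ZNRF3 most like RHOH (0.986), THBS2 (0.984) and N4BP3 (0.983). Each was chosen as the highest of 2753 or 2754 candidates, so high values are part of the choice.

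Other genes commonly read as Wnt targets also split with Dox: 6 of 22 measured ones fell and 4 rose against PS medium, with a median of -0.05. Of all genes 8.44% fell and 8.91% rose in this comparison. FZD7, a Frizzled receptor, fell by 1.68 ± 0.12 (adjusted p = 7.51e-06), with mean intensities of 555 with Dox, 1821 in PS medium and 2153 in untreated cells. Between PS medium and untreated cells FZD7 was not called (-0.26 ± 0.12, adjusted p = 0.134), although it passed with array weights (-0.35, adjusted p = 0.0258). With Dox it was lower than in untreated cells (-1.94 ± 0.12, adjusted p = 8.87e-07). LEF1, an activating TCF/LEF factor and Wnt target, fell by 1.04 ± 0.25 (adjusted p = 0.0144), a call lost without Dox replicate 1 (-0.85, adjusted p = 0.0632). SOX9, an HMG-box factor, rose by 1.24 ± 0.13 (adjusted p = 7.97e-05) and TNFRSF19, a TNF-family receptor also called TROY, by 1.09 ± 0.15 (adjusted p = 0.000481). SOX9 had mean intensities of 871.5 with Dox, 359 in PS medium and 972.5 in untreated cells. Its Dox difference from untreated cells missed the threshold (-0.19 ± 0.13, adjusted p = 0.303). For TNFRSF19 the means were 485, 213 and 175, and Dox was called above untreated cells (adjusted p = 4.82e-05). LGR5, a receptor for R-spondins, differed by -1.46 ± 0.61 (adjusted p = 0.140) and passed without PS replicate 1 (-2.09, adjusted p = 0.0312). It was named after its values were seen.

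Among 21 measured parts of the destruction complex and partners of beta-catenin, 3 fell and 1 rose with Dox, with a median of 0.05. Of all genes 8.44% fell and 8.91% rose. With the replicate number as a block 5 of the 21 fell and 2 rose. Over all genes the block took the calls from 1554 to 2140 lower and from 1641 to 2341 higher. Without Dox replicate 3, 3 of the 21 fell and 2 rose. APC, the scaffold that AXIN proteins bind, fell by 0.64 ± 0.11 (adjusted p = 0.00203) and AMER1, which binds APC at the membrane, fell by 0.40 ± 0.07 (adjusted p = 0.00308). APC had risen in PS medium over untreated cells (0.43 ± 0.11, adjusted p = 0.0119), and AMER1 was not called there (-0.08 ± 0.07, adjusted p = 0.48). Against untreated cells, Dox was not called for APC (-0.21 ± 0.11, adjusted p = 0.182) and was lower for AMER1 (-0.48 ± 0.07, adjusted p = 0.000572). BCL9L, a beta-catenin co-activator, rose by 0.36 ± 0.08 (adjusted p = 0.0115), a call lost without PS replicate 1 (0.31, adjusted p = 0.0514). TNKS2, a tankyrase that marks AXIN proteins for degradation, fell by 0.24 ± 0.07 (adjusted p = 0.0276). The TNKS2 call was lost without PS replicate 1 (-0.22, adjusted p = 0.0958) or 3 (-0.22, 0.0705), Dox replicate 2 (-0.19, 0.0936) or untreated replicate 1 (-0.24, 0.0503), and with only the Dox and PS arrays fitted (0.0827).

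Of 20 measured other surface and secreted modulators, 2 rose and 0 fell with Dox by limma (3 fell at an unadjusted p under 0.05), with a median of -0.06. Of all genes 8.91% rose and 8.44% fell. With the replicate number as a block 3 of the 20 rose and 2 fell, and without Dox replicate 3 it was 3 and 1. WLS, which carries Wnt ligands to the cell surface, rose by 1.17 ± 0.09 (adjusted p = 1.13e-05), with mean intensities of 4148 with Dox and 1873 in PS medium, and it rose in PS medium over untreated cells (4.11 ± 0.09, adjusted p = 4.64e-10). GPC4, a cell-surface glypican, rose by 0.32 ± 0.06 (adjusted p = 0.00565). The Dickkopf relatives DKK2 and DKK3 and the APCDD1 relative APCDD1L were not called in this comparison, although DKK3 passed without Dox replicate 3 (-0.42, adjusted p = 0.0260). Of the TCF/LEF factors other than TCF7L1 and LEF1, TCF7L2 rose by 1.07 ± 0.10 with Dox against PS medium (adjusted p = 3.41e-05). Its mean intensities were 2352 with Dox, 1114 in PS medium and 2170 on the untreated arrays. Without Dox, TCF7L2 had thus fallen from its untreated level (-0.97 ± 0.10, adjusted p = 2.9e-05). With Dox no difference from that level was called (0.11 ± 0.10, adjusted p = 0.471).

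**Figure D4:**
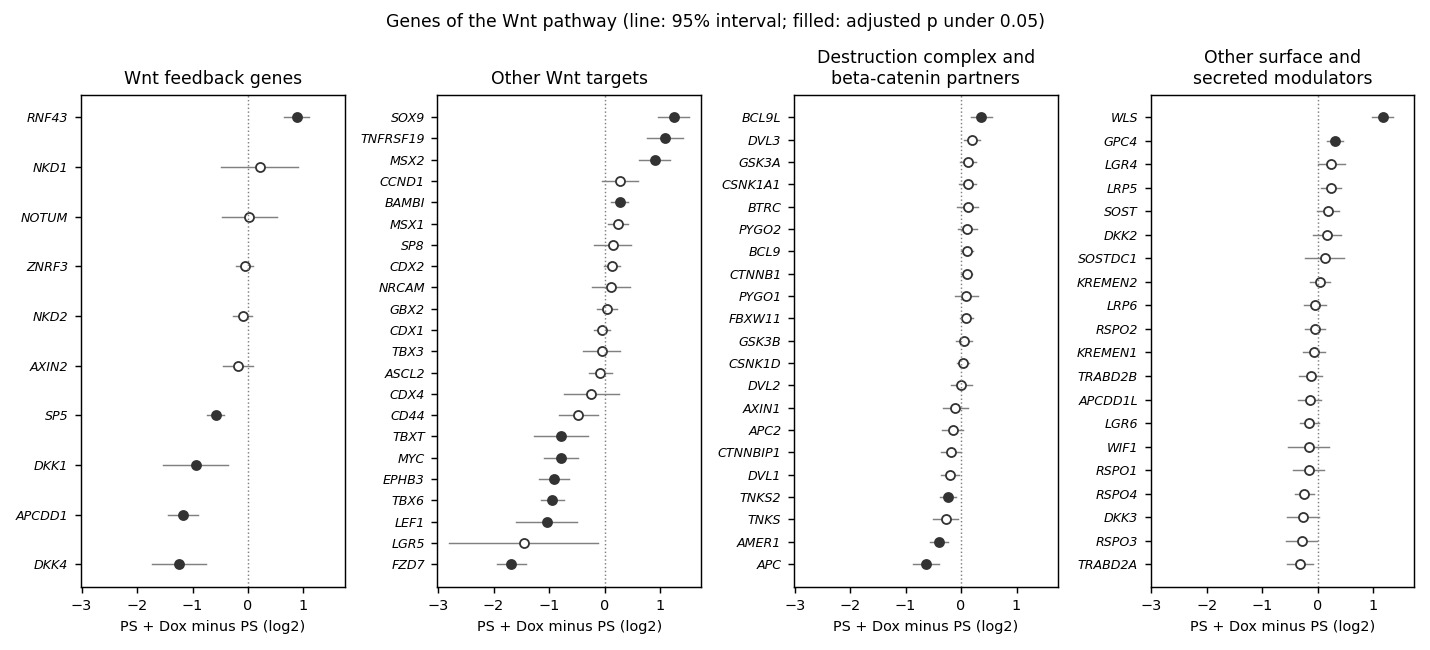
Log2 differences (PS + Dox minus PS) with 95% intervals for the 10 feedback genes and for 3 other groups of Wnt pathway genes, filled where the adjusted p is under 0.05. Called genes lie on both sides of 0 in the first 3 panels, and in the fourth only WLS and GPC4 were called, both higher.

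Markers of cell types moved along with these genes. In PS medium against untreated cells, 10 of 10 primitive streak markers rose and 8 of 9 measured pluripotent markers fell. Of all genes 14.2% rose and 15.7% fell in that comparison, and with Dox against PS medium 8.91% rose and 8.44% fell. Of 10 primitive streak markers 9 fell with Dox, and their summed intensity ranged from 15480 to 25030 with Dox, against 79210 to 100100 in PS medium and 1944 to 2048 in untreated cells. MIXL1, a homeobox factor of the streak, had 2761, 3162 and 2097 with Dox, against 8223, 8141 and 8309 in PS medium, and 101.4, 87.9 and 91.3 in untreated cells. TBXT (brachyury), a streak factor and Wnt target, had 396, 391 and 222 with Dox, against 724, 571 and 443 in PS medium, and 155, 174 and 181 in untreated cells. For both genes every Dox array lay between the PS and the untreated arrays. MIXL1 fell by 1.61 ± 0.12 with Dox (adjusted p = 1.16e-05) and TBXT fell by 0.78 ± 0.22 (adjusted p = 0.0331). For TBXT the threshold was missed without Dox replicate 3 (-0.52, adjusted p = 0.0776), PS replicate 1 (-0.60, 0.125) or 2 (-0.77, 0.0728) or untreated replicate 1 (-0.78, 0.0503), and with only the Dox and PS arrays fitted (0.0776). Of 8 definitive endoderm markers 6 fell (12050 to 18020 with Dox, 34880 to 56090 in PS medium, 1446 to 1521 in untreated cells). Of 9 measured amnion and trophectoderm markers 7 rose with Dox against PS medium (29580 to 33730 with Dox, 17020 to 17620 in PS medium, 2760 to 3083 in untreated cells). In PS medium against untreated cells 5 of these 9 rose and 2 fell, KRT7 and IGFBP3. Mean intensities with Dox, in PS medium and in untreated cells were 380, 90.4 and 348 for KRT7 and 332.5, 175 and 296 for IGFBP3. With Dox neither was called against untreated cells (adjusted p = 0.911 and 0.397). Of 9 pluripotent markers 4 rose with Dox against PS medium (30690 to 32130 with Dox, 23740 to 26860 in PS medium, 38660 to 40240 in untreated cells), SOX2 by 2.18 ± 0.16. Neuroectoderm markers fell in 3 of 10 cases and rose in 0 (7635 to 8808 with Dox, 13970 to 14900 in PS medium, 11490 to 12620 in untreated cells). The falls were in OTX2 (mean 1886 with Dox and 5630 in PS medium), ZIC2 (1629 and 4245) and LHX2 (154 and 204.5). PAX6 went the other way (189 and 62.1) but was not called against PS medium. With Dox against untreated cells PAX6 (2.51 ± 0.53, adjusted p = 0.00435) and NES (0.47 ± 0.15, 0.0330) were called higher, and OTX2, ZIC2 and SOX3 lower. Fibroblast and endothelial markers were called higher in 1 and 1 of 8 and lower in 1 and 2 of 8. Of the fibroblast markers, DCN, LUM and FAP had mean intensities of 24.3, 41.5 and 31.3 with Dox. COL3A1, PDGFRB, COL1A1 and THY1 had 127, 389, 598 and 816. POSTN was the one called higher, with 382 with Dox and 57.1 in PS medium (2.14 ± 0.45, adjusted p = 0.00722), and THY1 was called lower. Summed intensities of fibroblast markers were 2256 to 2678 with Dox, 2265 to 2623 in PS medium and 5604 to 5789 in untreated cells. For endothelial markers they were 2688 to 3222 with Dox, 5493 to 6087 in PS medium and 3939 to 4424 in untreated cells. All these sums are linear and weigh the brightest markers most. EOMES had a mean of 54450 among streak markers in PS medium. Among amnion and trophectoderm markers TFAP2A had 17110 with Dox and 8440 in PS medium. THY1 had 4256 among fibroblast markers in untreated cells, and KDR 4166 among endothelial markers in PS medium. The part of these cell types in the changes of the feedback genes was not tested.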

How the data were processed

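RNA from 9 samples, 3 per group, was hybridised to Affymetrix whole-transcript arrays. The deposited values are linear intensity per probe set, which the submitters' processing notes trace to Affymetrix Expression Console 1.1.1 with PLIER 2.0. Background correction and normalization before deposit are not stated in those notes. For arrays, their number limits the precision. Of 33297 probe sets, 19460 had 1 gene symbol, 1754 several and 12083 none. For 19429 of the 19460 the symbol was taken by gene number from GRCh38.p14, whether or not it differed from the array's, and 31 kept the array's symbol. Each gene was read from its probe set of highest mean, which left 18417 genes. POU5F1 and NANOG had no single-symbol probe set.

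Array medians of log2(value + 16) spanned 0.103, so arrays were quantile-normalized, which compresses the brightest genes. One limma 3.58.1 model (R 4.3.3, eBayes with a trend, 6 residual degrees of freedom) held the 3 group means. On simulated data for Dox against PS medium over 18417 genes, it called 91% of 2-fold and 100% of 4-fold changes, with 6 false calls. These shares are taken over genes. They do not give the power for single members of wide spread, such as NKD1 (SE 0.31) and NOTUM (SE 0.22). Nothing in the labels shows that replicates were separate cultures, so the p-values may reflect technical spread alone.

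Deviations of same-numbered arrays correlated at 0.245, 0.428 and 0.246 between Dox and PS medium and at 0.246, 0.309 and 0.297 between Dox and untreated cells. Between PS medium and untreated cells the values were 0.086, 0.397 and 0.271. The numbers may thus pair samples over the 3 groups, but the labels do not say so and this was not settled. The fit without the block was kept, so its standard errors use no pairing, and results with the block are given as an alternative. Members and gene lists were chosen with earlier results of these data known. Named genes were the members, TCF7L1, LEF1, TBXT, MIXL1, SOX2, up to 4 genes per pathway list with the largest called Dox change, and the 3 genes most correlated with each member called for Dox against PS medium or PS medium against untreated cells. LGR5, DKK2, DKK3, APCDD1L and the fibroblast, endothelial, neuroectoderm and amnion and trophectoderm markers given by name were named outside this rule, after their values were seen. Alternatives changed the normalization, offset, dim-gene filter, probe set choice, samples fitted, variance prior and array weights, added the replicate block, or left out each array.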

Additional observations from a re-analysis of the deposited data

How the results depend on the processing

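Over 19 alternatives per comparison (18 for DKK4, which the filter on dim genes removes), 537 of the member differences kept direction and call, 19 lost the call, 4 gained it and 7 turned sign, none of the last called. The falls of SP5, APCDD1 and DKK4 and the rise of RNF43 with Dox kept their calls in every alternative (log2 ranges -0.60 to -0.55, -1.28 to -1.06, -1.56 to -0.92 and 0.73 to 0.94). Leaving out each array gave 3 to 4 members lower and 1 higher for Dox against PS medium, 6 to 7 higher and 1 lower for PS medium against untreated cells, and 4 to 5 higher and 1 to 2 lower for Dox against untreated cells. For PS medium against untreated cells, the number lower was 2 with array weights, which add NKD2, and 0 with median centring, which loses ZNRF3 (limma, 2 lower at an unadjusted p under 0.05 in the fit of all arrays). Without each array in turn, the Dox difference from PS medium ranged from -0.21 to 0.35 for NOTUM and from -0.18 to 0.64 for NKD1, and the Dox difference from untreated cells from -0.10 to 0.14 for DKK4, each with its lowest value without Dox replicate 2 and its highest without Dox replicate 3. NOTUM was below 0 without Dox replicate 1 or 2 or PS replicate 1 or 3. On values as deposited the last DKK4 difference was -0.028. The cause was not tested. With the replicate number as a block, 4 members were lower and 1 higher for Dox against PS medium, and 8 rose in PS medium over untreated cells, with AXIN2 added (0.30, adjusted p = 0.0277). The block changed no other call of the 10 members, but it added calls among the other Wnt pathway genes. It also added calls over all genes, from 1641 to 2341 higher and from 1554 to 2140 lower for Dox against PS medium. Detection p-values were not used, so how far dim genes such as DKK4 stood above background is not known.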
